A study of Mus musculus with 20 samples.

Results

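The heat-shock genes described here are 9 genes that encode molecular chaperones, chosen by symbol from the 37994 genes of the deposited table of the developmental series and the 36104 genes of the table of left and right plates. All 9 symbols were found in both tables. They are the inducible Hsp70 genes Hspa1a and Hspa1b, the constitutive Hsp70 gene Hspa8, the Hsp110 gene Hsph1, the Hsp40 gene Dnajb1, the small heat-shock gene Hspb1, the Hsp90 genes Hsp90aa1 and Hsp90ab1, and Hspa5, the Hsp70 gene of the endoplasmic reticulum. The choice was made with their levels on adult plates against all other plates known, so that comparison is given as a description with no test.

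The habenula, a small relay of the dorsal diencephalon whose medial and lateral parts differ in their neurons, was taken from mice and its single cells were measured on 20 plates of 384 wells with Cel-seq2, in which the 3′ end of each transcript carries a unique molecular identifier (UMI). The developmental series holds 15 plates of the Brn3a-tauLacZ line, whose reporter marks Brn3a (Pou4f1). Embryonic days E11, E13, E15 and E18, postnatal days P4 and P7, and adults have 2 plates each, while E12 has 1. The other 5 plates are of the C57BL/6 strain, all at E18: 2 hold left habenula, 2 hold right habenula and 1 holds both sides. The title of that last plate names another stage, E1, and its other labels name E18, which was used. No treatment is named in the labels, and on every plate the cells were lysed by heating. The labels do not say how many animals a plate holds, so the spread between 2 plates of a stage may be technical. The p-values measure only the spread between plates of a group, pooled over the groups of a fit. Some of these groups hold plates of unlike cell makeup, as given below. The sources used here do not give genotype at the reporter locus, sex, the age of the adults or the gate of any sort.

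Chaperones bind unfolded or partly folded proteins and help them fold, be refolded or be handed on for degradation. Hsp70 proteins bind and release their clients in a cycle driven by ATP. Hsp40 proteins such as the product of Dnajb1 bring clients to Hsp70 and stimulate its ATPase, and Hsp110 proteins such as that of Hsph1 exchange its nucleotide. Hsp90 acts later, on clients such as kinases and steroid receptors, and small heat-shock proteins hold unfolded proteins in solution. Heat and other stress that unfolds cytosolic proteins activates heat shock factor 1 (HSF1), which binds heat shock elements, inverted repeats of the unit GAA, in the promoters of inducible chaperone genes. Unfolded protein in the endoplasmic reticulum instead induces Hspa5 (BiP) through the endoplasmic reticulum stress element. In dissociated tissue, immediate early and heat-shock transcripts are known to respond to the preparation of the cells as well as to the state of the tissue.

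The promoters were searched for the elements named above, and those of Hspa1a and Hspa1b are near-copies of each other. RefSeq's promoter table (GRCm38.p6) held windows for 6 members, and Hspa8, Hsp90aa1 and Hsp90ab1 had no entry. The 150 bases that end just before the RefSeq start are printed for the 3 members with a head-to-head element and for Dnajb1, with matches to GAANNTTC in capitals.
Hspa1a, chr17:34972157-34972306, minus strand: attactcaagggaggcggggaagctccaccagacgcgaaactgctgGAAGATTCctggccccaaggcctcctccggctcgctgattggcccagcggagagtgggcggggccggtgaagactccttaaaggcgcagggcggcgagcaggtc
Hspa1b, chr17:34959239-34959388, minus strand: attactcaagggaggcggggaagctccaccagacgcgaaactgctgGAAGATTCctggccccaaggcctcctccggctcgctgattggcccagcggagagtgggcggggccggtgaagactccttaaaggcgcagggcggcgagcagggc
Hspb1, chr5:135887769-135887918, plus strand: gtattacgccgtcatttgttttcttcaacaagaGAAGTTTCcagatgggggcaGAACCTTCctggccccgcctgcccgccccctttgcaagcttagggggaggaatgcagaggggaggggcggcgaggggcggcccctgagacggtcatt
Dnajb1, chr8:83608025-83608174, plus strand: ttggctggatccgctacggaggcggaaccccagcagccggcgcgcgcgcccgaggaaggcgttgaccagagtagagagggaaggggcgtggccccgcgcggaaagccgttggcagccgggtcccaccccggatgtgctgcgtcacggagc

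Matches were searched on both strands in the 250 bases before each start. Hspa1a and Hspa1b each held GAANNTTC once, from 104 to 97 bases before the start, and their upstream windows differed at 3 of 250 bases. Hspb1 held it at 117 to 110 and at 97 to 90 bases before the start. Hsph1 held the tail-to-tail form TTCNNGAA as TTCTCGAA, from 54 to 47 bases before 1 of its 2 RefSeq starts and 33 to 26 bases before the other. Of all 32851 promoter windows, 12.8% held either form, so a match of this length alone is common. Hspa5 held the endoplasmic reticulum stress element, CCAAT and CCACG with 9 bases between them, as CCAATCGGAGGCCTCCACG from 65 to 47 bases before the start, a motif found in 0.113% of the windows. Neither the 2 heat-shock forms nor the endoplasmic reticulum element were found in the Dnajb1 windows.

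The genes lie on several chromosomes in the GENCODE M21 annotation of GRCm38. Hspa1a (ENSMUSG00000091971, chr17:34969190-34972156) and Hspa1b (ENSMUSG00000090877, chr17:34956436-34959238) are neighbours on the minus strand with 1 exon each. Their transcripts aligned at 99.1% identity over 2200 bases, but their last 300 bases, near where a 3′ tag is read, aligned at 50.1%. Hspa1a overlaps Gm20481, a gene on the other strand, whose level was at most 1.19 counts per 1000000 counts (CPM) on any plate. Reads of the other members can be shared with pseudogenes. Hspa8 (chr9:40800984-40810087) has 9 pseudogene copies in the series table, Hsp90aa1 (chr12:110690605-110702728) has 4 and Hsp90ab1 (chr17:45567775-45573271) has 2. For Hsph1 (chr5:149614287-149636376), Dnajb1 (chr8:83608193-83612653) and Hspa5 (chr2:34771970-34777547) none was found, and for Hspb1 (chr5:135887919-135889563) there was 1.

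Of 5756 wells in the series, 3729 were kept as cells, and 1082 of 1920 in the left and right set. Counts in the kept wells of a plate ranged from 758697 on adult plate 1, which kept 56 wells, to 7760372 on P7 plate 1. Adult plate 1 stands apart in quality, with a median of 11.9% mitochondrial counts per well against 4.76% to 6.56% on the other series plates. Summed oligodendrocyte markers, with all 10 detected on both adult plates, reached 11659 CPM on adult plate 1 and 3122 on adult plate 2. All 10 neuron markers were detected on every plate. E18 plate 1 held 198 progenitor-like wells of 267 kept, while E18 plate 2 held 94 neuron-like wells of 110, so the plates of that stage differ in makeup. So do those of E13, with 94 neuron-like wells of 153 on plate 1 and 1 of 137 on plate 2. The E15 plates differ too, with 24 neuron-like wells of 188 on plate 1 and 242 of 302 on plate 2. The labels also number the plates, from 6 to 14 for E11, E13, E15 and E18 and from 15 to 22 for the adult, P7, P4 and E12. What the numbers follow is not given, so stage and plate number cannot be told apart except through E12, which is an embryonic plate numbered among the postnatal ones.

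Hspa1a and Hspa1b, the stress-inducible Hsp70 genes, were under 5 CPM on every embryonic plate of the series but that of E12, higher at E12, P4 and P7, and highest in the adult. Levels are CPM of all counts in the kept wells of a plate, and stages, ranges and "other plates" are of the 15 series plates until the left and right set is described. Hspa1a was 0.386 and 1.63 CPM on the E11 plates, 23.2 on the E12 plate, 3.41 and 3.72 at E13, 2.17 and 1.78 at E15, and 2.79 and 1.51 at E18. After birth it was 19.7 and 16.9 CPM on the P4 plates, 39.9 and 28.7 on the P7 plates, and 159.9 and 466 CPM on the adult plates. Both adult plates lay above all 13 others, and the E12 plate lay above the P4 plates and below those of P7. Hspa1b followed the same order, with 1.16 and 0.817 CPM at E11, 19.5 at E12, 2.84 and 4.78 at E13, 2.17 and 2.08 at E15, and 3.99 and 4.52 at E18. The P4 plates had 17.5 and 14.3 CPM, the P7 plates 37.9 and 26.1, and the adult plates 228 and 470. The adult mean was 313 ± 217 CPM for Hspa1a and 349 ± 171 CPM for Hspa1b (SD, n = 2), which is 27.9 and 33.0 times the mean of the other 13 plates. Without adult plate 2 the folds were 14.3 and 21.6, and against the plates numbered 18 to 22 alone they were 12.2 and 15.2. At E13, E15 and E18 a plate held only 2 to 10 UMIs of either gene, too few to order these stages.

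**Figure D1:**
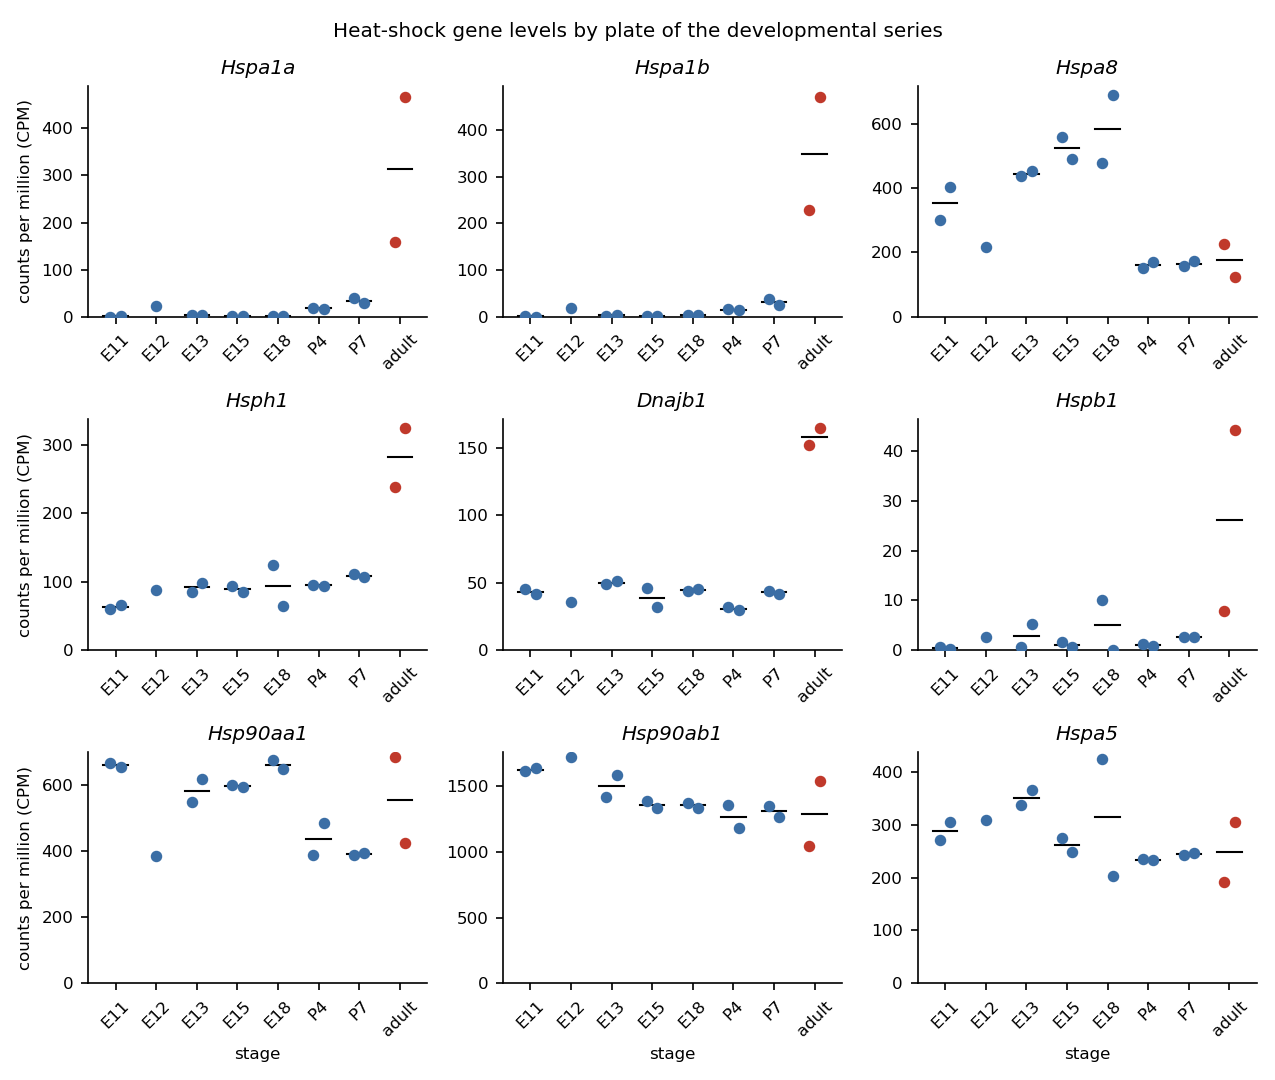
Level of each member in CPM (linear axis from 0) on the 15 series plates by stage. Each point is a plate, red for the adult, and the line is the mean of the 2 plates of a stage. Hspa1a, Hspa1b, Hsph1 and Dnajb1 have both adult plates above every other plate, at 159.9 and 466 CPM for Hspa1a. Hspa8 has its highest stage mean at E18, from plates of 478 and 688 CPM.

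Hsph1, the Hsp110 exchange factor, was 60.9 and 66.6 CPM at E11, 87.8 at E12, 85.8 and 98.3 at E13, 94.5 and 85.3 at E15, and 124 and 64.1 at E18. After birth Hsph1 was 95.8 and 93.4 CPM on the P4 plates and 111 and 108 on the P7 plates, and adult plates had 239 and 325 CPM. The adult plates lay above the highest of the other series plates, E18 plate 1, and the adult mean of 282 ± 60.5 CPM (SD, n = 2) was 3.12 times the mean of the rest. These levels count spliced and unspliced UMIs together. A mean of 42.8% of Hsph1 UMIs was unspliced in the adult, against 19.7% at P7 and less at the other stages. Dnajb1, the Hsp40 partner of inducible Hsp70, lay before that, within the series, between 29.4 CPM on P4 plate 2 and 51.5 CPM on E13 plate 2. It was 152 and 165 CPM on the adult plates, a mean of 158 ± 8.81 CPM (SD, n = 2) and 3.83 times the mean of the rest. Of these 4 genes, Dnajb1 had the adult plates closest together.

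Hspb1, the small heat-shock gene, was 7.91 and 44.2 CPM in the adult and was scarce elsewhere. It ranged from 0 on E18 plate 2, where 3 counts would be 2.26 CPM, to 9.98 CPM on E18 plate 1, which lay above adult plate 1. Hspb1 was therefore not among the genes whose adult plates stood clear of the rest.

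Hspa8, Hsp90aa1, Hsp90ab1 and Hspa5 did not have both adult plates above the rest. Hspa8, the constitutive Hsp70, was 302 and 402 CPM at E11, 217 at E12, 436 and 451 at E13, 557 and 491 at E15, and 478 and 688 at E18. The P4 plates had 153 and 171 CPM, the P7 plates 157 and 172, and the adult plates 227 and 124. All embryonic plates other than E12 lay above all postnatal ones, and E12 lay between the 2 adult plates. Hsp90aa1, the inducible cytosolic Hsp90, was between 548 and 675 CPM on the embryonic plates of the series other than E12, 385 at E12, 389 and 484 on the P4 plates, 389.5 and 395 on the P7 plates, and 684 and 424 on the adult ones. Adult plate 2 thus lay among the other plates, and adult plate 1 just above the highest of them. Hsp90ab1, the constitutive Hsp90, ranged only from 1046 CPM on adult plate 1 to 1722 CPM at E12, with 1538 CPM on adult plate 2. Hspa5 ranged from 191 CPM on adult plate 1 to 425 CPM on E18 plate 1, with 305 CPM on adult plate 2. In these 4 genes the adult plates overlapped the other stages.

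In all, 4 of 9 members had both adult plates above the other 13, and 0 had both below. By the mean of per-well CPM, Hspb1 was also above and Hspa8 was below, at an adult mean of 129.6 CPM against at least 148 CPM elsewhere. Among the 17629 genes with a mean of at least 1 CPM, 8.38% had both adult plates above the other 13 and 8.36% had both below. The median log2 ratio of adult over other plates was 1.64 over the 9 members and -0.10 over all those genes. Since the members were chosen on this contrast, nothing is read from the difference. Scaled to spike-in counts in place of the plate's total, no member had both adult plates above the rest, against 1.51% of the genes with a mean of at least 1 on that scale. There Hspa1a was 528 counts per 1000000 spike-in counts on adult plate 1 and 6466 on adult plate 2, against 1057 and 698 on the P7 plates. Spike-in counts per kept well were 4104 on adult plate 1 and between 794 and 3661 elsewhere in the series. What set this difference was not tested.

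The share of wells with a UMI depends on depth, so wells were also thinned to 2000 UMIs each, which left 40 of 56 wells on adult plate 1 and 327 of 342 on adult plate 2. As found, Hspa1a was seen in 33.9% and 67.5% of adult wells, in 29.1% and 26.2% at P7, in 25.1% and 18.3% at P4, in 7.90% at E12, and in 0.647% to 4.38% on the other embryonic plates of the series. At equal depth the share was 19.9% and 38.5% in the adult, 6.14% and 5.05% at P7, 4.12% and 2.87% at P4, and 2.58% at E12, and at most 0.826% on the other embryonic plates of the series. Hspa1b at equal depth was 37.0% and 38.1% in the adult and 5.56% and 4.36% at P7. Hsph1 was seen in 30.4% and 35.4% of thinned adult wells and in 11.3% to 19.4% on the other series plates. Dnajb1 reached 11.2% and 20.2% of thinned adult wells against at most 9.99% elsewhere. Hspb1 also had both adult plates above all others on this measure, at 3.76% and 10.6% against at most 1.85%, but not with wells thinned to 4000 UMIs, where adult plate 1 had 2.97% and E18 plate 1 had 3.62%. The share of all genes with both adult plates above the rest on these measures was not counted. Hspa8 was seen in 35.4% to 72.5% of thinned wells on the embryonic series plates, in 25.9% to 27.7% at P4 and P7, and in 27.4% and 19.0% in the adult.

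**Figure D2:**
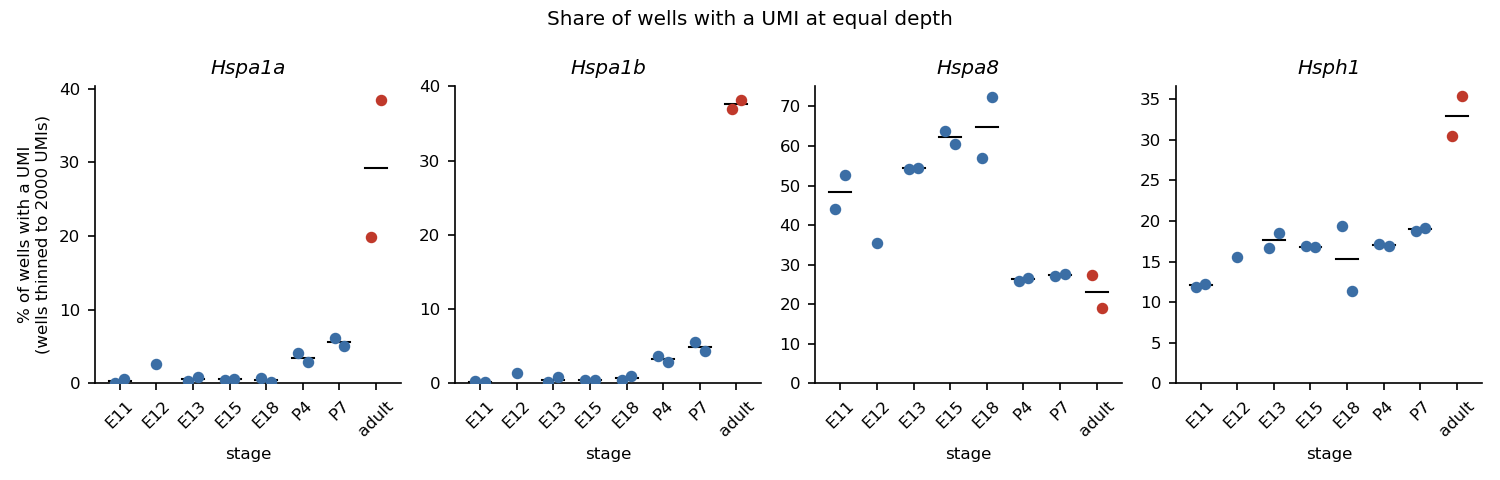
Share of wells with at least 1 UMI of Hspa1a, Hspa1b, Hspa8 and Hsph1, in percent, after each well was thinned to 2000 UMIs, by stage. Points are plates, red for the adult, and lines are means of 2 plates. Hspa1a reached 19.9% and 38.5% of adult wells and 6.14% and 5.05% at P7, while Hspa8 was highest on E18 plate 2, at 72.5%, and was 25.9% on P4 plate 1.

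The 2 inducible genes were counted together in the same adult wells. On adult plate 2, which held 2340 UMIs of Hspa1a and 2359 of Hspa1b, 259 of 342 wells had a UMI of either gene. Of these, 187 had both, 44 had Hspa1a alone and 28 had Hspa1b alone. Spearman's rho over the 342 wells was 0.683, as a description, since the wells share a library and differ in depth. Adult plate 1 had 18 wells with both, 1 with Hspa1a alone and 15 with Hspa1b alone, and its rho was 0.395. At P7, where the genes were less abundant, both were seen in 35 wells and either in 142 on plate 1, and in 20 and 106 wells on plate 2. The rho on these plates was 0.173 and 0.168. The 10% of wells with most of it held 46.2% of the Hspa1a UMIs on adult plate 2, against 76.1% and 67.5% on the P7 plates and 80.2% on adult plate 1.

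The signal at E12 came mostly from a few wells. Of the 110 Hspa1a UMIs on that plate, 35 were in 1 microglia-like well and 39 in the 4 mural and fibroblast-like wells, while the 234 neuron-like wells held 16. Of the 92 Hspa1b UMIs there, 47 were in 1 mural and fibroblast-like well and 29 in the microglia-like well. P7 plate 1 also held a loaded well, with 45 UMIs of Hspa1a of the plate's 309.

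Within neuron-like wells the same 4 members had the highest adult levels. Clusters were made without the members and the related gene lists and named from fixed marker lists. In neuron-like wells Hspa1a was 4.0 CPM at E12, 18.6 and 13.8 on the P4 plates, 27.3 and 27.0 on the P7 plates, and 143 and 477 CPM on the adult ones, from 25 wells on adult plate 1 and 180 on adult plate 2. Hspa1b was 18.9 and 16.5 CPM in these wells at P7 and 264 and 473 CPM in the adult. Hsph1 was 102 and 100.2 CPM at P7 and 278 and 357 in the adult, and Dnajb1 was 35.8 and 38.8 CPM on the P7 plates and 104 and 186 CPM on the adult ones. The same 4 of 9 members had both adult values above all other plates with 20 or more neuron-like wells, as did 10.9% of all genes there. Hspb1 was 1.95 and 11.2 CPM in the adult neuron-like wells. Most adult neuron-like wells were medial habenula-like, 156 of the 167 on adult plate 2 in 1 cluster that was 99.4% adult wells, so the neurons compared across stages fall in different clusters. In that cluster 4 of the 10 oligodendrocyte lineage markers and 1 astrocyte marker were also at least 2-fold over all other wells, and its wells had a median of 2.07 times the median UMIs of their plate, against 0.912 to 1.16 times in the other medial habenula-like clusters. No doublet caller was run, and the part of these in the adult neuron-like values was not tested.

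Cell classes of the adult differed in which member they held. On adult plate 2, the 167 medial habenula-like wells held Hspa1a at 485 CPM (95% exact Poisson interval 463 to 509, counting error only), the 64 oligodendrocyte lineage-like wells at 76.8 CPM (54.7 to 105), and the 27 astrocyte-like wells at 24.97 CPM (5.16 to 73.1). The 34 endothelial-like wells were higher, at 1626 CPM of Hspa1a (1399 to 1872) and 2319 CPM of Hspa1b (2045 to 2608). Among the classes with at least 20 wells on the plate, Hspb1 was also highest in the endothelial-like wells. It was 855 CPM (695 to 1041) in the endothelial-like wells against 10.5 CPM (7.50 to 14.4) in the medial habenula-like ones. Of its 222 UMIs on the plate, 99 came from the endothelial-like wells and 57 from the 15 mural and fibroblast-like wells. Another 18 came from the 17 ependymal and choroid plexus-like wells and 45 from the 180 neuron-like wells. Dnajb1 was higher in neurons, with 187 CPM (174 to 202) in medial habenula-like wells and 51.8 CPM (19.0 to 113) in endothelial-like ones. Hsph1 was 364 CPM (345 to 385) in medial habenula-like and 187 CPM (152 to 229) in oligodendrocyte lineage-like wells. These values are of 1 plate, and depth differed between the classes, with a median of 21807 UMIs in medial habenula-like, 7429 in oligodendrocyte lineage-like, 4121 in astrocyte-like and 3282 in endothelial-like wells.

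**Figure D3:**
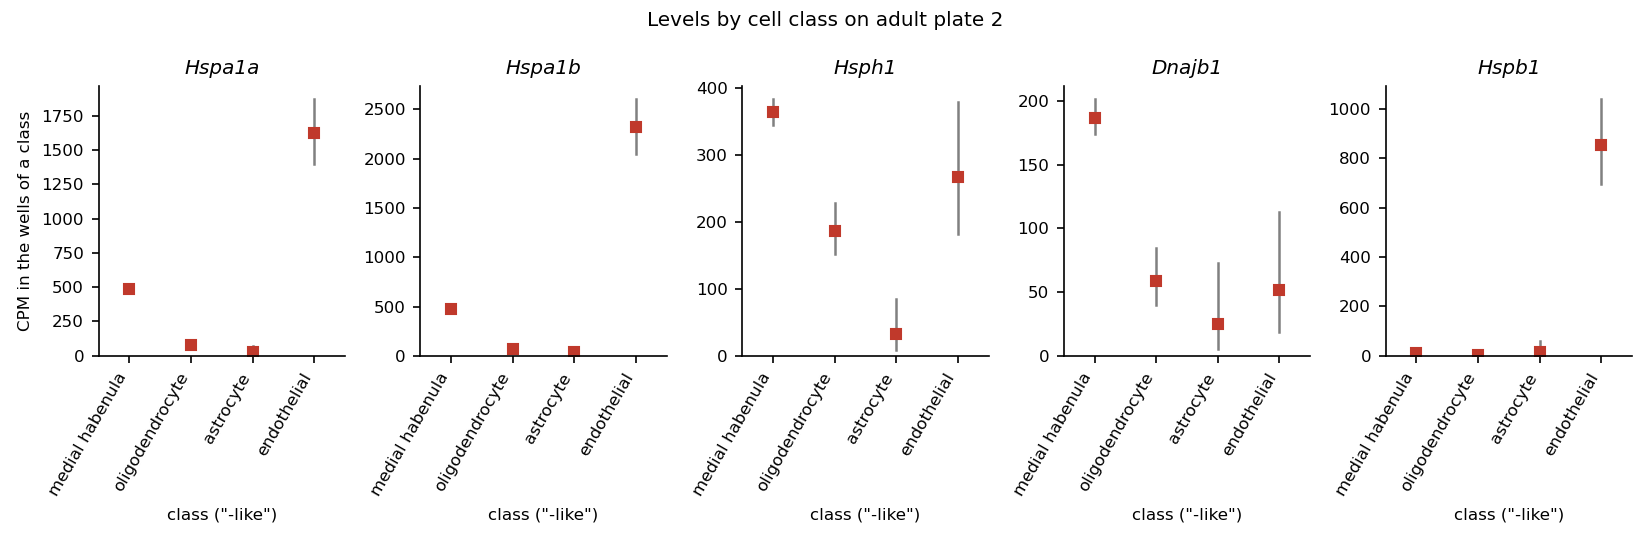
Level of 5 members in 4 cell classes of adult plate 2, in CPM of the wells of a class (linear axes from 0, with a scale for each gene). Squares are the level and lines the 95% exact Poisson interval, which covers counting error only. Hspa1a, Hspa1b and Hspb1 were highest in endothelial-like wells, at 1626, 2319 and 855 CPM, and Dnajb1 in medial habenula-like wells, at 187 CPM.

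Adult plate 1 gave a different order in the 2 classes it could show. Its 20 oligodendrocyte lineage-like wells held 249.4 CPM of Hspa1a (180 to 338) and 369 CPM of Dnajb1 (283 to 473), and its 21 medial habenula-like wells held 102 CPM of Hspa1a (70.5 to 144) and 67.7 CPM of Dnajb1 (42.8 to 103). The adult plates therefore differ in whether neuron-like or oligodendrocyte lineage-like wells carried more of these transcripts, and the oligodendrocyte lineage-like wells compared fall in different clusters. On adult plate 2, 38 of the 64 were of a cluster led by Gpr17, Neu4 and Pdgfra and 26 of a cluster whose leading genes include Mobp and Mog, and on adult plate 1 most were of the latter.

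Hspa5 and Hsp90aa1 were uneven between classes on E18 plate 1. On E18 plate 1 the 22 ependymal and choroid plexus-like wells held 2110 CPM of Hspa5 and 1592 CPM of Hsp90aa1, against 233 and 614 CPM in the 198 progenitor-like wells of the same plate. These 22 wells, 8.24% of the plate's, gave 46.8% of its Hspa5 UMIs. The Hspa5 level of 425 CPM on this plate was the highest of the series. E18 plate 2, where Hspa5 was 203 CPM, held 94 neuron-like wells of 110. The part of cell makeup in this difference was not tested.

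The deposited tables split UMIs into spliced and unspliced, and the unspliced share of some members moved with stage. Hspa1a and Hspa1b, which have 1 exon, had 0 unspliced UMIs on every plate. Hsph1 was 41.4% and 44.1% unspliced on the adult plates, 20.8% and 18.7% at P7, 9.20% and 6.90% at P4, and 1.18% to 12.9% on the embryonic plates. Both adult plates lay above both P7 plates, which lay above all others. Such orders of the unspliced share were not counted over all genes. Hsp90aa1 was 8.72% and 10.1% unspliced in the adult and 0.777% to 4.87% elsewhere in the series. The 95% exact binomial interval on Hsph1 was 34.2% to 49.0% on adult plate 1 and 41.7% to 46.6% on adult plate 2. The share over all genes was 26.4% and 25.2% on the adult plates, within 17.7% to 25.8% on the other series plates for adult plate 2 and just above it for adult plate 1. Hspa8 and Hsp90ab1 did not follow this order. Hsp90ab1 was 0.466% to 0.704% unspliced at E12, P4 and P7, 2.16% and 0.961% in the adult and 1.18% to 2.92% on plates numbered 6 to 14.

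**Figure D4:**
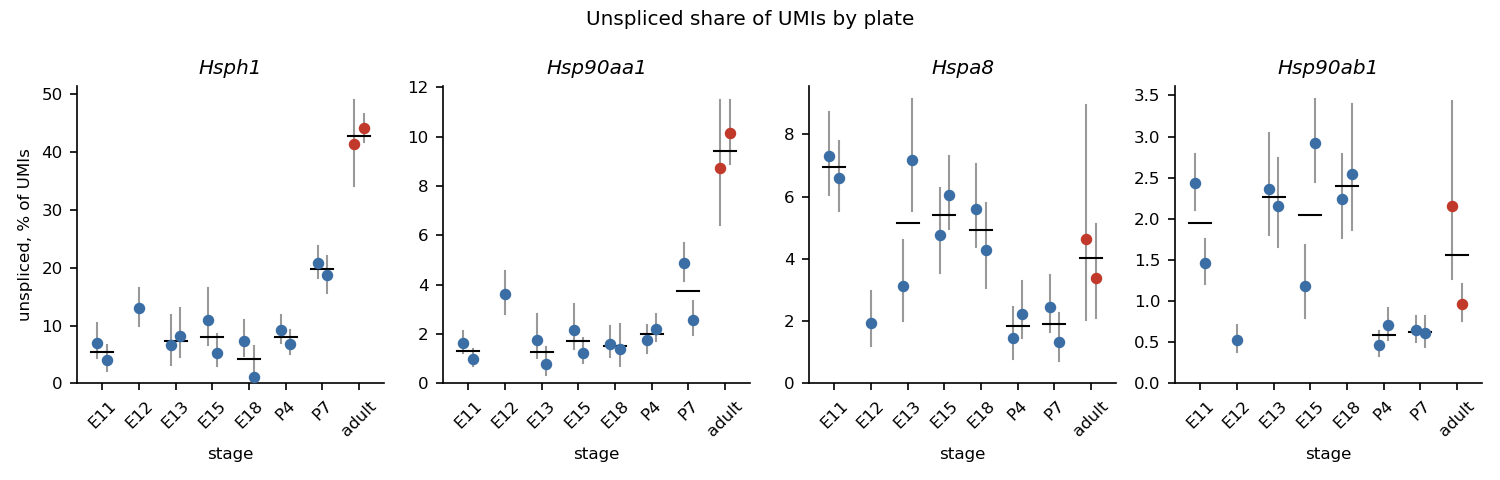
Unspliced UMIs in percent of all UMIs of Hsph1, Hsp90aa1, Hspa8 and Hsp90ab1 on the 15 series plates by stage. Points are plates, red for the adult, grey lines 95% exact binomial intervals and black lines means of 2 plates. Hsph1 was 41.4% and 44.1% unspliced in the adult against 20.8% and 18.7% at P7, while Hsp90ab1 was lowest at E12, P4 and P7.

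Between E11 and P4, a contrast other than the one in the rule, although the members were chosen with the levels of all stages known, the inducible Hsp70 genes rose and Hspa8 fell. In edgeR's quasi-likelihood test over 12 plates of 6 stages, 3 of 9 members passed an adjusted p of 0.05 (Benjamini-Hochberg over 16807 genes), where 28.4% of all genes did. Hspa1a rose by 4.21 ± 0.51 (log2, SE) from 10 UMIs on the 2 E11 plates to 226 on the 2 P4 plates, at an edgeR adjusted p of 0.000542. Hspa1b rose by 4.02 ± 0.40 (edgeR adjusted p = 0.000222). Hspa8 fell by 1.06 ± 0.26 on the log2 scale (edgeR adjusted p = 0.0150). Both P4 plates lay on 1 side of both E11 plates in these 3 and in every other member, so that order does not set the 3 apart. It was not counted over all genes. Of all genes, 14.9% rose and 13.5% fell, and the share of members called is near that background.

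The other 6 members missed the threshold from E11 to P4. Hsph1 changed by 0.63 ± 0.22 on the log2 scale (edgeR adjusted p = 0.0546), Hsp90aa1 by -0.53 ± 0.19 (edgeR adjusted p = 0.0650) and Dnajb1 by -0.43 ± 0.18 (edgeR adjusted p = 0.106). Hspb1, with 3 and 1 UMIs on the E11 plates, changed by 1.41 ± 1.36 (edgeR adjusted p = 0.466). Hsp90ab1 and Hspa5 changed by -0.30 ± 0.20 and -0.24 ± 0.26 (edgeR adjusted p = 0.281 and 0.506). DESeq2 called 6 members, adding Hsph1, Hsp90aa1 and Hsp90ab1, where it called 31.8% of all genes. In neuron-like wells edgeR called 6, adding Hsph1, Hsp90aa1 and Dnajb1, where it called 50.7% of all genes. Scaled by library size alone, edgeR called 4, adding Hsp90aa1 (edgeR adjusted p = 0.0287), where it called 28.3% of all genes. The fall of Hspa8 was no longer called without E11 plate 2 (edgeR adjusted p = 0.141), without P4 plate 1 (0.144) or without P4 plate 2 (0.0729).

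**Figure D5:**
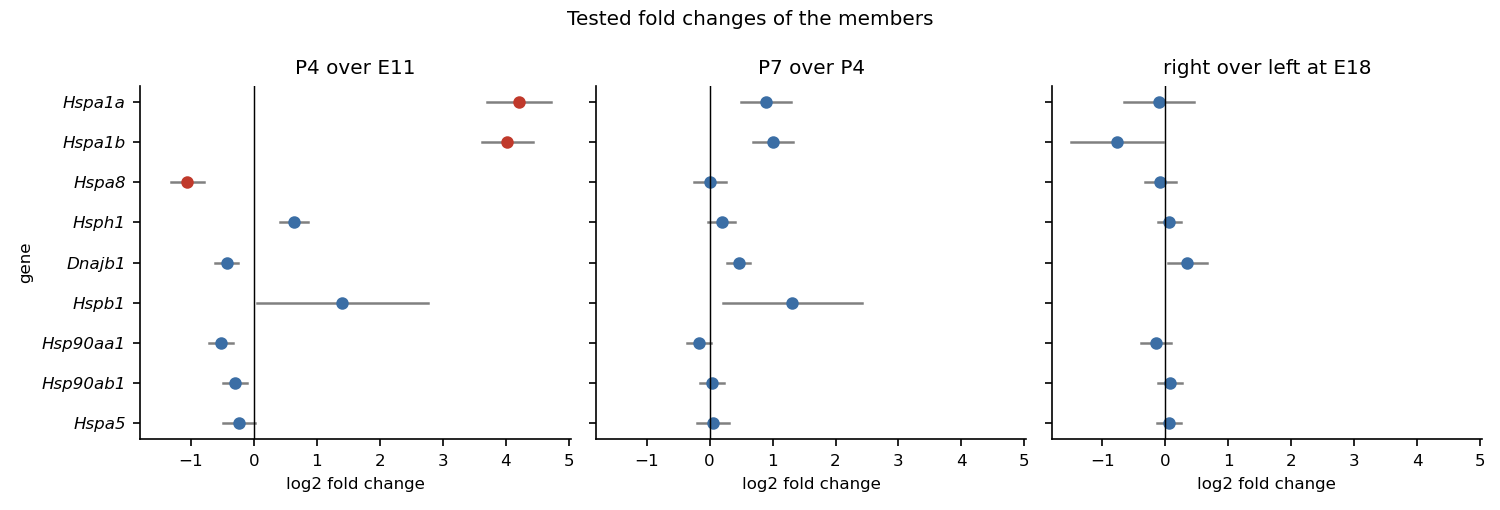
Log2 fold change of each member in the 3 tested comparisons, with the standard error as a line. Red points passed an adjusted p of 0.05 in edgeR's quasi-likelihood test and blue points did not; Hspb1 was filtered out in the left and right set. Hspa1a at 4.21 and Hspa1b at 4.02 lie far to the right in P4 over E11, and no point is red in the other panels.

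Plate number moves with the change in Hspa8. The E12 plate, numbered among the postnatal plates, had 217 CPM of Hspa8 and 385 CPM of Hsp90aa1, below all other embryonic plates of the series. Hsp90aa1 was lower still, at 349 CPM, on right plate 1 of the second set. Summed pseudogene copies of Hsp90ab1 were 21.8 to 48.7 CPM on E12, P4 and P7 plates and 159 to 259 CPM on plates numbered 6 to 14, and those of Hspa8 were 3.73 to 7.16 CPM and 21.1 to 117 CPM. Adult plate 1 had 63.3 CPM of the Hspa8 copies and adult plate 2 had 20.5 CPM. With its copies added, Hspa8 was 323 and 432 CPM at E11, 225 at E12, and 156 and 176 CPM at P4. How far plate number takes part in the fall was not tested. Hspa1a at E12 was 23.2 CPM over the whole plate and 4.0 CPM in neuron-like wells, against 19.7 and 16.9 CPM and 18.6 and 13.8 CPM on the P4 plates, and the part of plate number in its rise was not tested either.

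From P4 to P7 no member passed. In edgeR's quasi-likelihood test 0 of 9 members and 1 of 16807 genes (0.00595%) were called, and DESeq2 called 0 members. An unadjusted p under 0.05 in edgeR's test was seen for 3 members and for 587 of the 16807 genes. Hspa1a changed by 0.90 ± 0.40 on the log2 scale, from 18.3 ± 1.98 to 34.3 ± 7.92 CPM (SD, n = 2; edgeR adjusted p = 1). Hspa1b changed by 1.01 ± 0.32 and Dnajb1 by 0.47 ± 0.18, each at an edgeR adjusted p of 1. In these 3 genes, and also in Hsph1, Hspb1 and Hspa5, both P7 plates lay above both P4 plates, an order that was not counted over all genes.

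Left and right habenula at E18 did not differ detectably in any member. The inducible genes were low on all 5 plates, with Hspa1a at 6.08 and 5.41 CPM on the left, 7.24 and 3.46 on the right and 3.49 on the plate of both sides. Hspa1b was 7.43 and 3.24 on the left, 5.25 and 1.15 on the right and 3.19 CPM on both sides. Hspa8 was 632 and 784 CPM on the left and 525 and 843 on the right, so the sides overlapped. Of the 8 members that passed the filter on low counts, 0 were called by edgeR's quasi-likelihood test or by DESeq2 and 0 had an unadjusted p under 0.05, and edgeR called 0.0% of 15489 genes. The log2 difference of right over left was -0.10 ± 0.55 for Hspa1a, -0.76 ± 0.73 for Hspa1b, -0.08 ± 0.24 for Hspa8 and 0.35 ± 0.31 for Dnajb1 (SE, edgeR adjusted p = 1.000 each). Erythroid markers differed between these plates, at 19048 and 17219 CPM on the left and 3410 and 265 on the right, and without erythroid-like wells the count of members called was again 0.

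Other chaperone genes, from lists chosen with earlier results of these data known, show where the members stand within their pathway. Of 27 cytosolic co-chaperones and regulators, 6 had both adult plates above all others and 1 below, at a background of 8.38% and 8.36%. Those above were Hsf1, the factor itself, with an adult mean of 56.9 CPM against at most 52.7 on any other plate, Dnaja4 (46.3 against 19.7), Hspa4l (176 against 120), Hspb8 (19.5 against 15.2), Dnajb2 (47.6 against 41.1) and Cryab (317 against 22.0). Cryab encodes a small heat-shock protein that mature oligodendrocytes make in quantity. Summed oligodendrocyte markers were also higher on the adult plates, and the part of cell makeup in the Cryab level was not tested. Of the 8 subunits of the CCT chaperonin, which folds actin and tubulin, 0 lay above and 5 below, with Cct4 at 95.9 CPM in the adult against at least 142 on any other plate. Of 18 genes of the endoplasmic reticulum stress response 1 lay above (Dnajb9) and 1 below (Dnajb11), and of 6 mitochondrial chaperones likewise 1 and 1 (Hspa9 and Lonp1).

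Between E11 and P4, 5 of the 27 co-chaperones rose and 7 fell in edgeR's test, where 14.9% of all genes rose and 13.5% fell, with a median log2 change of -0.02 against 0.02 over all genes. Those that rose were Dnaja4, Dnajb4, Hsf1, Hspb6 and Cacybp, and Hsf1 changed from 26.5 to 50.1 CPM (edgeR adjusted p = 0.00484). Those that fell included Ptges3, an Hsp90 co-chaperone, from 176 to 84.0 CPM, and Stip1, which links Hsp70 to Hsp90, from 149 to 94.9 CPM. In the endoplasmic reticulum list 0 rose and 4 fell (Atf4, P4hb, Pdia3 and Pdia4), in the CCT list 0 rose and 4 fell, and of the mitochondrial chaperones 0 rose and 1 fell. From P4 to P7 and from left to right 0 genes of any of these lists were called by edgeR.

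Immediate early genes, whose transcripts mark recent activity or handling of cells, were followed beside the inducible Hsp70 genes. Of 18, 9 rose and 0 fell from E11 to P4 in edgeR's test, where 14.9% of all genes rose and 13.5% fell, with a median log2 change of 1.40, and Fos changed from 47.4 to 378 CPM (edgeR adjusted p = 0.0437). In the adult 3 of 18 (Fosb, Jun and Klf4) had both plates above all others and 0 below, where 8.38% and 8.36% of all genes did, with a median log2 ratio of 1.28. Their summed level was 2376 and 2919 CPM on the adult plates, 1544 and 1894 at P7, and 1736 and 1344 at P4. It was 2464 CPM on E18 plate 2 and 718 to 1103 on the other embryonic series plates. Hspa1a on E18 plate 2 was 1.51 CPM, from only 2 UMIs. The part of handling in the levels of the heat-shock genes was not tested.

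The genes most like 4 members over the 15 plates were found by Pearson's r of log2(CPM + 1) among 10809 genes that are not members. This is a description, since the plates share stage, depth and makeup. Closest to Hspa1a were Rtl8b (r = 0.942), Srpr, Arl2, Tln2 and Chmp4b. Each had both adult plates above all others, which picking by r with Hspa1a favours, so nothing is read from it. Closest to Hspa8 were 3 processed pseudogenes, Gm14586 (r = 0.970), Gm16326 and Gm17779, with Tufm and Mif. The 3 pseudogenes are not among the pseudogene copies of Hspa8 described above. Gm17779 had 316 and 334 CPM at E11, 105 at E12 and 58.9 and 63.5 CPM at P4, so these genes share the low level at E12 with Hspa8. Closest to Hspa5 were Lman2 (r = 0.967), a cargo receptor of the secretory pathway, Cib1, Ak7, Taf6l and Ccnd3. Closest to Hsp90ab1 were Arhgdia (r = 0.917), 1700037H04Rik, Ctnnd1, Kcp and Nes. Among the members, r over the 15 plates was 0.984 for Hspa1a with Hspa1b, 0.865 for Hspa1a with Hsph1 and -0.810 for Hspa1a with Hspa8.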

How the data were processed

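The authors deposited tables of total, spliced and unspliced transcripts per gene and well. The deposited values are expected counts, ln(1 - n/4096)/ln(1 - 1/4096) of a whole UMI number n, found from the values: the inverse was whole, to within 1e-06, for 100% of them. They were summed over kept wells and rounded. STAR 2.5.3a and the build mm10 are named in the submitters' processing notes; the sources used here do not give the counting program or its use of strand.

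Wells with at least 1000 UMIs, 500 genes and at most 20% mitochondrial counts were kept. No doublet caller was run. Well numbers recur on every plate, so a shared barcode marks a well position and not a shared cell. The 92 spike-in rows stayed out of totals. Clusters came from scanpy 1.11.5 and leidenalg 0.10.2 (2000 variable genes, 30 components, 15 neighbours, resolution 1); a name needed 3 markers at 2-fold over all other wells in 20% of wells, and was withheld where markers of another class outnumbered its own among the 10 leading genes. Clusters left unnamed became neuron-like if 5 of the neuron markers were at 2-fold over the clusters named as other classes and none of those classes' markers led it, a step set after seeing the data. The level of a class is given with at least 20 wells on a plate, and smaller classes only by their UMIs. Plate sums were tested with edgeR 4.0.16 (filterByExpr, TMM, glmQLFTest) under R 4.3.3, with Benjamini-Hochberg adjustment at 0.05 and DESeq2 1.42.0 as an alternative; E12 and the adult stayed out of the fit. The tests were checked on simulated data. Intervals are at 95%. Named genes are all 9 members and members of the lists where a role is shown. Named too, for each of 4 members, are the 5 non-member genes of highest r with a mean of at least 10 CPM. The members and lists were chosen with earlier results of these data known. Copies were found with blastn 2.17.0. Columns of values that belong to no sample of the series numbered 0, and the table of barcodes was not used here.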

Additional observations from a re-analysis of the deposited data

How the results depend on the processing

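From E11 to P4, 3 members were called in the fit reported, 6 by DESeq2, 6 in neuron-like wells, 4 by library size only (Hsp90aa1 added) and 2 to 3 with 1 plate left out. The genes called were 4776, or 8660 in neuron-like wells and 1836 to 2015 with 1 plate left out, where the lone plate of a stage is assumed to vary like the others. From P4 to P7, 0 members were called in any setting run, with 1 gene called in the fit reported, 29 by DESeq2, 508 in neuron-like wells, 168 without the filter on low counts, 0 with the replicate block and 0 with 1 plate left out. From left to right 0 members were called in any setting run, and the genes called were 0, or 1 by DESeq2, 37 without the filter, 6 with the replicate block and 18 to 39 with 1 plate left out. The cause of these moves was not tested, except that leaving out a plate removes samples. Groups share replicate numbers, and whether plates with the same number share more than that is not known. Deviations of plates with the same number correlated at 0.0965 from E11 to P4, 0.0877 from P4 to P7 and 0.240 from left to right; with the replicate block 3 members were again called from E11 to P4, and no other call of a member changed. Members with both adult plates above the rest numbered 4, where 8.38% of all genes did. They were 5 by the mean of wells (Hspb1 added; 7.92% of genes), 5 without adult plate 1 (Hspb1 added; 15.3%), 5 without adult plate 2 (Hsp90aa1 added; 17.0%), 5 on plates numbered 15 to 22 (Hspb1 added; 19.6%) and 0 scaled to spike-in counts (1.51%). Members below were 1 by the mean of wells (Hspa8), 1 without adult plate 1 (Hspa8), 2 without adult plate 2 (Hspa5 and Hsp90ab1) and 0 in the other settings run. The fits in neuron-like wells, without erythroid-like wells, scaled to spike-in counts or on plates 15 to 22 were chosen after seeing the data. Some uncalled log2 changes turned direction with 1 plate left out. From P4 to P7 they ranged from -0.10 to 0.13 for Hspa8, from -0.34 to 0.030 for Hsp90aa1 and from -0.036 to 0.11 for Hsp90ab1. From left to right they ranged from -0.77 to 0.32 for Hspa1a, from -2.29 to 0.043 for Hspa1b, from -0.43 to 0.22 for Hspa8, from -0.042 to 0.20 for Hspa5, from -0.039 to 0.22 for Hsph1 and from -0.42 to 0.11 for Hsp90aa1. Depth limits Hspa1a and Hspa1b on the E11, E13, E15 and E18 plates, where a plate held 2 to 10 UMIs of either gene.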
